A study of Drosophila melanogaster with 12 samples.

Results

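Eye pigment pathway genes were followed here in the larval central nervous system (CNS) of *Drosophila*, a tissue with no pigmented eye. The group holds 9 of the 17510 genes counted, chosen by FlyBase symbol: the transporter genes *w* (*white*), *st* (*scarlet*) and *bw* (*brown*), the ommochrome genes *v* (*vermilion*), *cn* (*cinnabar*) and *kar* (*karmoisin*), and the pteridine genes *Pu* (*Punch*), *pr* (*purple*) and *ry* (*rosy*). They were chosen with their values known, and *w* and *st* were singled out because they differ strongly between the genotypes, so their values are given as a description with no test. Strand-specific poly(A) mRNA libraries came from CNSs of third-instar larvae raised at 25 °C, with 60 CNSs per replicate and 3 replicates in each of 4 groups, and males and females were not separated. CTCF and Cp190 are DNA-binding and chromatin-associated proteins found at insulators and domain boundaries.

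CTCF0 animals carried 2 independently isolated *CTCF* knockout alleles and also lacked maternal CTCF, because their mothers carried a *CTCF* rescue transgene flanked by FRT sites that *nanos*-driven FLP recombinase removed in the germline. Cp190KO animals carried 2 independent *Cp190* knockout alleles made by CRISPR with a DsRed marker cassette. The *CTCF* locus of CTCF0 animals also carried a knocked-in DsRed marker. Each mutant had its own wildtype (WT) control of the strain w1118, a stock that carries a partial deletion of *w* removing the start of the gene. The CTCF0 experiment was sequenced as paired-end reads and the Cp190KO experiment as single-end reads on another Illumina instrument, so a difference between experiments cannot be told apart from instrument and read layout.

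Reads counted on genes numbered 11652548 to 21522453 per library, with 22.6 to 34.8% of reads on no gene. *CTCF* fell from 40.8 ± 1.48 to 2.26 ± 0.604 CPM (counts scaled to a common library size with edgeR's TMM factors, mean ± SD, n = 3 per group) in CTCF0. *Cp190* counts were 871, 512 and 439 in the libraries labelled Cp190KO and 963, 399 and 801 in their WT control, so this gene does not check that label. Library replicate 3 labelled Cp190KO stood apart, with 375 genes at 1 to 3 counts where the others had 1738 to 2199. Low counts in it are therefore uncertain. All 9 CNS marker genes were detected in every group, and 0 of them were differentially expressed in either mutant by edgeR or DESeq2, with 0 in CTCF0 and 1 in the other mutant at an unadjusted p under 0.05. Summed levels of 4 muscle markers were 20.5 to 30.2 CPM in WT and 46.6 to 53.6 CPM in CTCF0, where 1 of them, *Mlc2*, a myosin light chain gene, was called by edgeR at a fold change of 2.82 (adjusted p = 0.0306). That call was lost without CTCF0 replicate 1 or 3 or WT replicate 1 or 3 (adjusted p 0.0552 to 0.186). Summed eye-antennal disc markers spanned 142 to 196 CPM in WT and 157 to 178 CPM in CTCF0, and 223 to 236 CPM in WT and 239 to 254 CPM in the libraries labelled Cp190KO, which did not overlap. In CNS tissue, fewer cells of a type and less RNA per cell cannot be told apart.

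The brown and red colours of the fly eye come from separate pathways. Ommochromes, the brown pigments, are made from tryptophan, and pteridines (drosopterins), the red pigments, from GTP. Precursors of both enter pigment granules through ABCG-type transporters that work in pairs, White with Scarlet for ommochromes and White with Brown for pteridines. *w* was the first mutant gene studied in flies, and a shortened form of it is a common marker of transgenes. The first steps of the pteridine pathway also make tetrahydrobiopterin, the cofactor of the enzymes that start dopamine and serotonin synthesis in neurons.

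*w* (FBgn0003996) lies on X at 2790599 to 2796466 on the minus strand of dm6, inside the span of the other-strand gene *kirre*, with which it shares 0 exonic bases. Its counts were 4, 2 and 7 in the WT control of CTCF0, and 1978, 1645 and 1374 in CTCF0. In CPM, CTCF0 libraries held 121, 117 and 99.8 of *w*, a mean of 112 ± 11.2 (n = 3), against 0.226, 0.172 and 0.499 in WT. Every CTCF0 library was far above every WT library, an order found for 10% of genes tested in CTCF0, and the spread among CTCF0 libraries was 9.97% of their mean. Per read counted on genes, *w* was 392 times as abundant in CTCF0, with an exact counting interval of 229 to 737 at 95% that covers counting error only, since reads were not collapsed to molecules. The fitted log2 fold change was 8.51 (SE 0.314).

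*w* was close to absent in the other experiment. Its counts were 1, 2 and 3 in WT and 4, 14 and 0 in the libraries labelled Cp190KO, a ratio of 2.98 with a counting interval of 1.13 to 9.16. The groups overlapped, and the library at 0 is the one with few genes at 1 to 3 counts. *w* passed the filter of at least 1 CPM in at least 3 libraries only through the CTCF0 libraries, so it had to differ there. The counts are per gene, so they do not say which part of *w*, or which copy of it, the reads came from.

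*st* (FBgn0003515) lies on 3L at 16497651 to 16500460 on the plus strand. In the WT control of CTCF0 it had 101, 30 and 84 counts, or 5.70, 2.59 and 5.99 CPM, and in CTCF0 8, 14 and 6 counts, or 0.490, 0.992 and 0.436 CPM. The CTCF0 libraries were all below the lowest WT library, an order found for 7.35% of genes tested, with a mean of 0.639 ± 0.307 CPM against 4.76 ± 1.89 CPM (n = 3 each), or 13.4% of WT. The fitted log2 fold change was -2.90 (SE 0.452), and *st* passed the filter in this comparison only through the WT libraries.

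The libraries labelled Cp190KO showed the opposite direction for *st*. Counts were 82, 104 and 160 in WT, or 4.04, 6.41 and 7.86 CPM, and 2870, 733 and 1209 in the libraries labelled Cp190KO, or 135, 43.9 and 66.9 CPM. All 3 of the latter were above every WT library of either experiment (9.87% of genes tested were higher in this way than in their own control), with a mean of 81.9 ± 47.3 CPM against 6.11 ± 1.93 CPM (n = 3 each). They also differed among themselves more than WT libraries did, with an SD of 57.7% of the mean against 31.6%. The log2 fold change was 3.75 (SE 0.488), and it was 3.19 without replicate 1, the library with the most *st*, and 3.88 without replicate 3. The WT controls of the 2 experiments overlapped for *st*, between 2.59 and 7.86 CPM. Of the 9 eye-antennal disc markers, 6 were tested, and edgeR called 0 of them in either mutant. *gl* (*glass*), a transcription factor of photoreceptors, was at 1.87, 1.97 and 2.11 CPM in WT and 3.66, 6.53 and 4.82 CPM in the libraries labelled Cp190KO, a log2 fold change of 1.33 (edgeR adjusted p = 0.104) that DESeq2 called and that was the 1 unadjusted p under 0.05 among these markers. In CTCF0 the log2 fold change of *gl* was -0.49 (edgeR adjusted p = 0.640). Over the 6 tested markers the median log2 fold change was 0.16 in the libraries labelled Cp190KO, from -0.0040 to 1.33, and -0.08 in CTCF0. *sev*, the marker with the highest level, had a mean of 156 CPM both in the libraries labelled Cp190KO and in their WT control. The part of eye disc cells in the values of *st* was not tested.

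**Figure D1:**
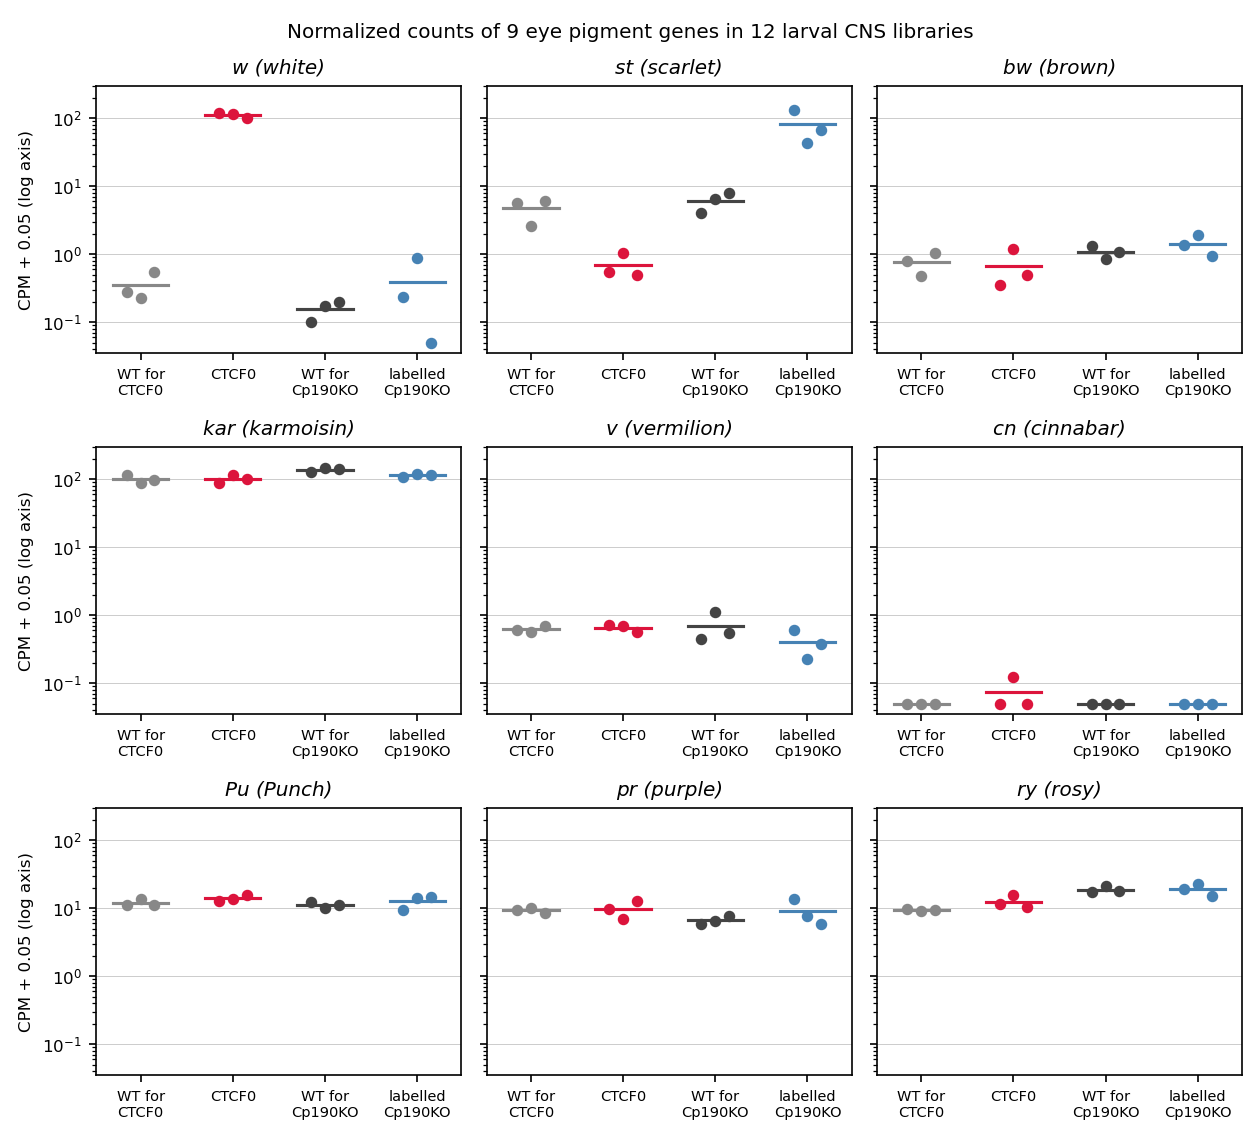
Normalized counts of the 9 genes in each library, as CPM + 0.05 on a log axis. Points are libraries in the order of replicates 1 to 3 and lines are group means. *w* stands near 100 CPM in CTCF0 libraries alone, and *st* lies between 43.9 and 135 CPM in the libraries labelled Cp190KO and below 1 CPM in CTCF0.

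*bw* (FBgn0000241, 2R at 23527805 to 23538499, minus strand), the partner of *w* in pteridine precursor transport, stayed low in all 12 libraries. Its counts were 13, 5 and 14 in WT and 5, 16 and 6 in CTCF0, and 26, 13 and 21 in WT and 28, 31 and 16 in the libraries labelled Cp190KO. The groups overlapped in both experiments. *bw* passed the filter in the Cp190KO experiment, where its log2 fold change was 0.37 (SE 0.420, edgeR adjusted p = 0.784), and not in the CTCF0 experiment. Of its exonic bases, 16.7% overlap the other-strand gene *mi*, and the strand setting of the counting is not given in the sources used here. The 3 transporter genes therefore did not share a pattern over the libraries, with *w* high in CTCF0, *st* high in the libraries labelled Cp190KO and *bw* between 0.306 and 1.86 CPM throughout.

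The ommochrome enzyme genes *v* and *cn* were low or close to absent. *Kyat*, an enzyme gene of the wider ommochrome list read below, was not low, with group means of 91.6 to 125 CPM. *v* (FBgn0003965, X at 10923972 to 10925631, plus strand), the tryptophan 2,3-dioxygenase of the first step, had 3 to 17 counts per library, or 0.180 to 1.05 CPM. Its groups overlapped in both experiments and it did not pass the filter in any comparison. *cn* (FBgn0000337, 2R at 7782797 to 7785067, minus strand), the kynurenine 3-monooxygenase, had 1 read in CTCF0 replicate 2 and 0 reads in every other library. A count of 0 allows up to 3 counts, which is 0.139 to 0.257 CPM over the libraries, so expression below that was not detectable at this depth. Of its exonic bases, 68.7% overlap an annotated antisense RNA.

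*kar* (FBgn0001296, 3R at 12682186 to 12689367, minus strand), a gene for a protein like monocarboxylate transporters that ommochrome pigmentation needs, was the opposite case. It had 1011 to 2901 counts in every library. In the CTCF0 experiment it stood at 115, 87.2 and 98.0 CPM in WT and 89.7, 114 and 101 CPM in the mutant, and the groups overlapped with a log2 fold change of 0.02 (SE 0.173, edgeR adjusted p = 0.984). In the other experiment WT libraries held 128, 145 and 143 CPM and the libraries labelled Cp190KO 107, 122 and 116 CPM. All 3 of these were below the lowest WT library, as were the mutant libraries for 9.92% of the 8599 genes tested, and the log2 fold change of -0.27 (SE 0.119, edgeR adjusted p = 0.391) did not pass the test.

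The pteridine genes were detected in every library, and 0 of the 3 passed the test in either mutant by edgeR or DESeq2, or at an unadjusted p under 0.05. *Pu* (FBgn0003162, 2R at 21175315 to 21182608, plus strand), the GTP cyclohydrolase I that starts the pathway, held 11.3, 13.8 and 11.1 CPM in WT and 12.7, 13.8 and 15.5 CPM in CTCF0, a log2 fold change of 0.22 (SE 0.195, edgeR adjusted p = 0.798). In the other experiment *Pu* held 12.2, 9.93 and 11.2 CPM in WT and 9.25, 14.3 and 14.6 CPM in the libraries labelled Cp190KO, a log2 fold change of 0.20 (SE 0.260, edgeR adjusted p = 0.808). Its groups overlapped in both experiments.

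*pr* (FBgn0003141, 2L at 20073719 to 20075458, minus strand), the 6-pyruvoyltetrahydropterin synthase, held 9.37, 10.1 and 8.41 CPM in WT and 9.73, 6.88 and 12.7 CPM in CTCF0. The log2 fold change was 0.07 (SE 0.256, edgeR adjusted p = 0.962). In the other experiment it held 5.81, 6.48 and 7.72 CPM in WT and 13.6, 7.55 and 5.76 CPM in the libraries labelled Cp190KO, where replicate 1 was high and replicate 3 was below every WT library. The log2 fold change was 0.43 (SE 0.359, edgeR adjusted p = 0.709).

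*ry* (FBgn0003308, 3R at 13032528 to 13038020, plus strand), the xanthine dehydrogenase of pteridine and purine metabolism, held 9.65, 8.97 and 9.27 CPM in WT and 11.3, 15.5 and 10.3 CPM in CTCF0. The lowest CTCF0 library was above the highest WT library, as it was for 10% of the 8718 genes tested in CTCF0, but the log2 fold change of 0.41 (SE 0.217, edgeR adjusted p = 0.550) did not pass the test. In the other experiment *ry* held 17.5, 21.0 and 17.8 CPM in WT and 19.0, 23 and 15.2 CPM in the libraries labelled Cp190KO, which overlapped, with a log2 fold change of 0.02 (SE 0.227, edgeR adjusted p = 0.971).

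A gene counted as differentially expressed (DE) where its fold change exceeded 1.5 and edgeR's adjusted p was below 0.05. By this rule 2.81% of the 8718 genes tested were DE in CTCF0 and 2.41% of the 8599 genes tested were DE in the libraries labelled Cp190KO. Apart from *w* and *st*, 0 of the 4 genes tested in CTCF0 (*kar*, *Pu*, *pr*, *ry*) and 0 of the 5 tested in the other mutant (these and *bw*) were DE by edgeR, DESeq2 or any other alternative. At an unadjusted p under 0.05 the count was 0 in both comparisons, where 12.1% and 13.1% of genes tested passed. A test of whether the CTCF0 change differed from the Cp190KO change, over all 12 libraries, called 1.42% of the 8954 genes tested and 0 of *bw*, *kar*, *Pu*, *pr* and *ry*, and 0 also at an unadjusted p under 0.05, where 6.89% of genes passed. Its estimates for these ran from -0.59 for *bw* to 0.40 for *ry* on the log2 scale.

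**Figure D2:**
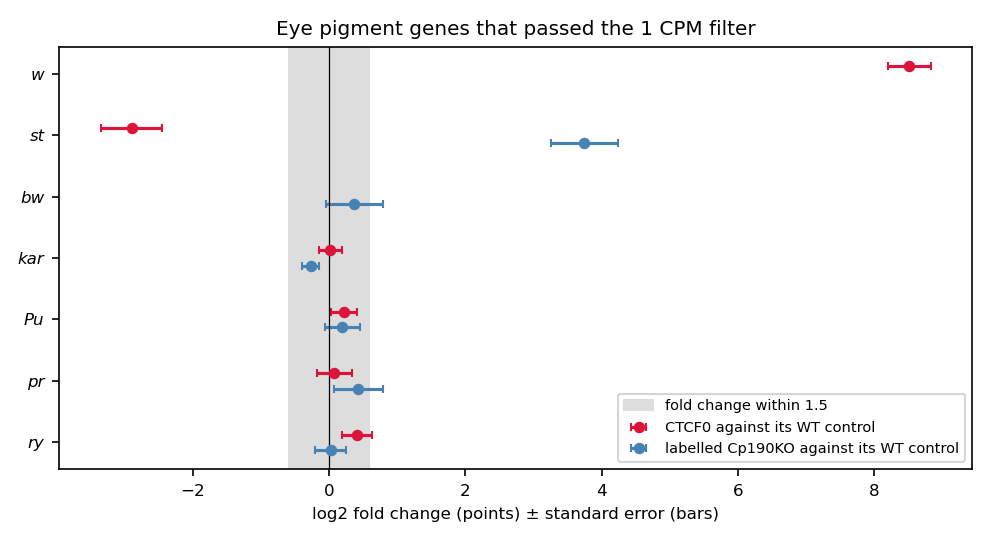
Log2 fold change against the WT control of the same experiment for the 7 genes that passed the filter (points, with bars of 1 standard error), and the range of fold changes within 1.5 in grey. *w* at 8.51 and *st* at -2.90 and 3.75 lie outside the grey range, and the other genes lie inside it.

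A comparison of the WT controls with each other showed how far these genes move between experiments. *ry* was higher in the WT control of Cp190KO, at 18.7 ± 1.93 CPM against 9.30 ± 0.341 CPM (n = 3 each), a log2 fold change of 1.11 (SE 0.182, edgeR adjusted p = 0.0021), and it was DE under each of the 10 alternatives, where 14.3% of 8569 genes tested were DE. *kar* was also higher, at 139 ± 9.24 against 100.2 ± 14.3 CPM, with an edgeR adjusted p of 0.0122 and a fold change of 1.48 that is just under the threshold. *Pu* and *pr* did not pass, with log2 fold changes of -0.02 (edgeR adjusted p = 0.953) and -0.38 (edgeR adjusted p = 0.218). Summed muscle markers were higher in the WT control of Cp190KO too, at 50.8 to 70.1 CPM, and their part in the change of *ry* was not tested.

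Levels per exonic length put these genes on a common scale. In both WT groups *kar* was first, at 37.4 ± 5.33 and 51.8 ± 3.45 CPM per kb, followed by *pr* at 8.66 ± 0.786 and 6.21 ± 0.90 CPM per kb and *Pu* at 5.61 ± 0.698 and 5.16 ± 0.531 CPM per kb (n = 3 each). The ranges of *pr* and *Pu* overlapped in the WT control of Cp190KO and not in that of CTCF0. *st* and *ry* came next, at 2.22 and 2.14 CPM per kb in the WT control of CTCF0, where their ranges overlapped, and 2.84 and 4.32 CPM per kb in that of Cp190KO, where they did not. Below 1 CPM per kb came *v*, *bw*, *w* and *cn*, in this order in both WT groups, and in this stretch the ranges of *bw* and *w* overlapped in the control of CTCF0 and those of *v* and *bw* in that of Cp190KO.

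The mutants changed this order through *w* and *st*. *w* moved from the eighth place to the first in CTCF0, at 47.8 ± 4.77 CPM per kb, with a range that overlapped that of *kar* at 37.9 ± 4.60. *st* moved from the fourth place to the seventh in CTCF0, at 0.298 ± 0.143 CPM per kb, with a range that overlapped those of *v* and *bw*. In the libraries labelled Cp190KO *st* took the second place, at 38.2 ± 22.0 CPM per kb, and its range of 20.5 to 62.8 spanned that of *kar*. Thus *w* exceeded *st* per kb in each CTCF0 library, and *st* exceeded *w* in each of the other 9 libraries.

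**Figure D3:**
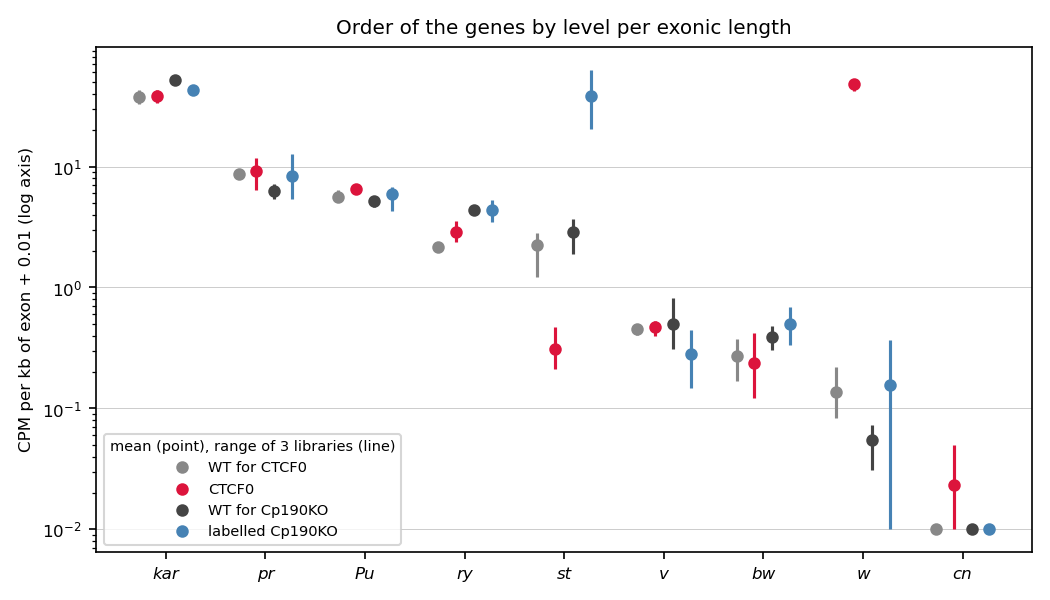
Level per exonic length of each gene in each group, as CPM per kb + 0.01 on a log axis (points are means and lines the range of 3 libraries). *kar* leads in both WT groups, and *w* in CTCF0 and *st* in the libraries labelled Cp190KO reach its level.

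Few other genes of the pigment lists passed the test in either mutant. Of the ommochrome list, *cd* (*cardinal*), which encodes a peroxidase of late ommochrome synthesis, had 7, 10 and 8 counts in WT and 35, 32 and 40 in CTCF0. This is 0.609 ± 0.236 against 2.44 ± 0.409 CPM (n = 3 each), with no overlap, an order found for 10% of genes tested. *cd* passed the filter only through the CTCF0 libraries and so had to differ there, and like *w* it is given without a test. In the other experiment it did not pass the filter, with 20, 12 and 10 counts in WT and 35, 34 and 6 in the libraries labelled Cp190KO.

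Of the pteridine and tetrahydrobiopterin list, 14 of 16 genes were tested and 0 were DE by edgeR or DESeq2 in either mutant, with a median log2 fold change of 0.05 in CTCF0 and 0.13 in the libraries labelled Cp190KO. The medians over all genes tested were 0.01 and 0.08. At an unadjusted p under 0.05, 2 of the 14 passed in each mutant, *GstO3* and *Pcd* in CTCF0 and *DhpD* and *GstO1* in the other. Among the enzymes that use tetrahydrobiopterin, *Trhn*, the neuronal tryptophan hydroxylase of serotonin synthesis, had a log2 fold change of 0.63 in CTCF0 (edgeR adjusted p = 0.211) and 0.98 in the libraries labelled Cp190KO (edgeR adjusted p = 0.114). Its levels were 31.9 to 48.1 CPM in WT and 56.1 to 68.3 CPM in CTCF0, and 35.6 to 52.1 and 64.1 to 113 CPM in the other experiment. The groups did not overlap in either experiment, an order found for 10% and 9.87% of genes tested. By edgeR 0 of the 3 enzymes tested were DE in either mutant. DESeq2 called *Trhn* in the libraries labelled Cp190KO alone, and 1 enzyme, *Trhn*, had an unadjusted p under 0.05 in each mutant. *ple*, the tyrosine hydroxylase of dopamine synthesis, had log2 fold changes of 0.24 and 0.08.

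Of the genes for pigment granule biogenesis, which encode general subunits of lysosome-related trafficking such as AP-3 and HOPS, 18 of 22 were tested and 0 were DE by edgeR or DESeq2 in either mutant, with 1 in each at an unadjusted p under 0.05. Their median log2 fold changes were -0.09 and -0.03. Between the WT controls 3 of them were lower in that of Cp190KO, *g* and *rb*, which encode subunits of AP-3, and *lt*, of HOPS, with log2 fold changes of -0.89, -1.06 and -0.71 (edgeR adjusted p = 0.0120, 0.0014 and 0.0109). In that comparison 14.3% of all genes tested were DE, so 3 of 18 is near the share over all genes.

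Among ABCG-type transporter genes other than *w* and *st*, 9 were tested in CTCF0 and 0 were DE by edgeR or DESeq2 (DE background 2.81%). At an unadjusted p under 0.05 there were 3, against 12.1% of all genes, namely *CG32091*, *CG31689* and *CG9664* with log2 fold changes of 1.34, 1.09 and -0.62. *CG32091* passed the filter only through the CTCF0 libraries. In the libraries labelled Cp190KO 1 of 10 was DE (background 2.41%). This was *CG9664*, at 14.4, 22.0 and 17.8 CPM in WT and 7.66, 6.11 and 5.04 CPM in the libraries labelled Cp190KO. These did not overlap, an order found for 9.92% of genes tested. The log2 fold change of *CG9664* there was -1.52 (SE 0.275, edgeR adjusted p = 0.0333). The call was lost without any 1 WT replicate (adjusted p 0.0962 to 0.170) and without Cp190KO replicate 3 (adjusted p = 0.173). In CTCF0 the log2 fold change of *CG9664* was -0.62 (edgeR adjusted p = 0.229).

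**Figure D4:**
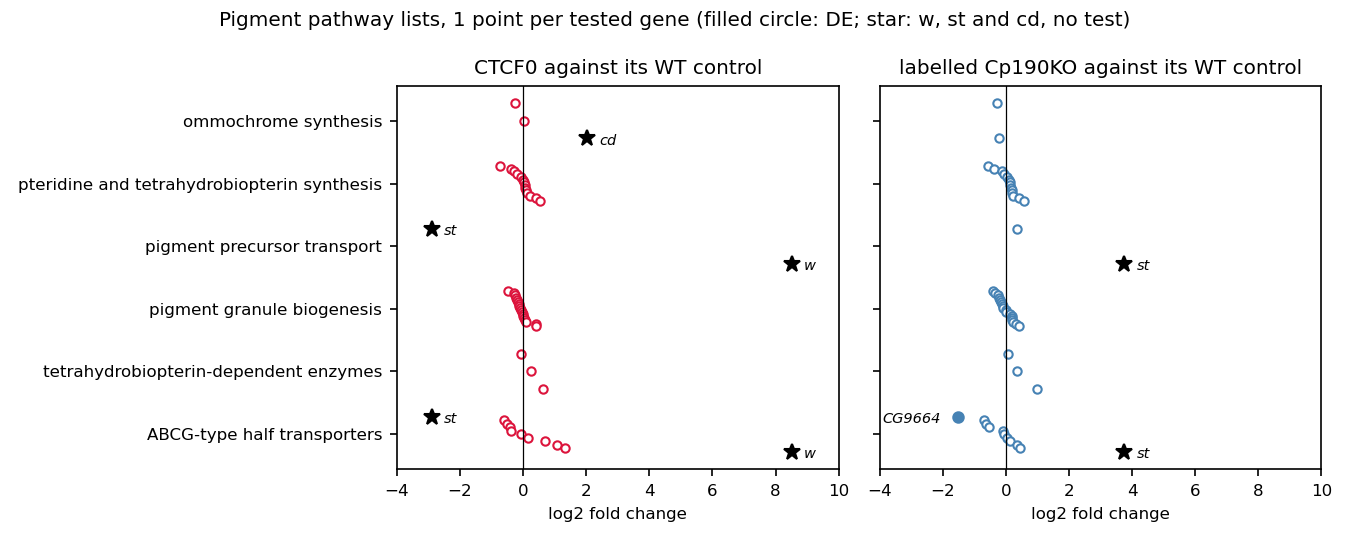
Log2 fold change of each tested gene of 6 pigment lists in CTCF0 (left) and in the libraries labelled Cp190KO (right). Filled circles are DE genes, open circles genes that did not pass and stars *w*, *st* and *cd*, given without a test. *CG9664* on the right is the only filled circle.

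The genes around *w* did not change to its extent in CTCF0. Among the 5 nearest tested genes on each side of *w*, 0 of 10 were DE by edgeR or DESeq2 in CTCF0. By edgeR 2.81% of all genes tested were DE there. An unadjusted p under 0.05 was found for 1 of the 10, against 12.1% of all genes. The lowest coordinates of these 10 genes ran from -58.1 to 382 kb relative to that of *w*. Their log2 fold changes ran from -0.54 to 0.81, with *kirre*, whose span holds *w*, at -0.25 (edgeR adjusted p = 0.892) and *CG32795*, whose lowest coordinate is 7.69 kb from that of *w*, at 0.14. In the libraries labelled Cp190KO, where 2.41% of all genes tested were DE, 1 of these genes was DE, *CG3603*. It had 575, 642 and 615 counts in WT and 23, 12 and 14 in the mutant. Its log2 fold change was -5.23 (SE 0.299, edgeR adjusted p = 9.9e-04), and the call held in all 10 alternatives. Between the WT controls *kirre*, *N* (*Notch*) and *CG18508* were lower and *CG3603* higher in that of Cp190KO, with log2 fold changes of -1.48, -1.35, -0.74 and 0.74 (edgeR adjusted p = 0.0033, 0.0033, 0.0331 and 0.0120). In that comparison 14.3% of all genes tested were DE.

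Around *st*, 1 of 10 neighbours was DE by edgeR in each mutant, against 2.81% and 2.41% of all genes tested. DESeq2 also called *Mipp1* in both. In CTCF0 the neighbour called by edgeR was *CG43373*, an other-strand gene whose span holds *st* with 0 shared exonic bases. Its levels were 11.8, 10.3 and 9.41 CPM in WT and 5.02, 4.25 and 3.99 CPM in CTCF0. It was lower in CTCF0, with a log2 fold change of -1.25 (SE 0.214, edgeR adjusted p = 0.0173). In the other experiment it held 9.41, 5.98 and 12 CPM in WT and 7.94, 1.26 and 6.31 CPM in the libraries labelled Cp190KO, which overlapped and did not pass the test (edgeR adjusted p = 0.681). *CG43373* overlaps *CG42514* on its own strand, so the counting could split their reads, and its call in CTCF0 was lost without CTCF0 replicate 1 or 3 or WT replicate 1 or 3 (adjusted p 0.0557 to 0.124).

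In the libraries labelled Cp190KO the DE neighbour of *st* was *Smn*, the survival motor neuron gene, at 192 ± 11.3 CPM in WT and 125 ± 11.9 CPM in the mutant (n = 3 each). Its log2 fold change of -0.62 (SE 0.122, edgeR adjusted p = 0.0468) held without Cp190KO replicate 2 and was lost without any 1 other library (adjusted p 0.107 to 0.203). Between the WT controls *aos* (*argos*), an inhibitor of EGF receptor signalling, was lower in that of Cp190KO, at -0.80 (edgeR adjusted p = 0.0111). In that comparison 14.3% of all genes tested were DE. *st* and *CTCF* are both on 3L, 9.14 Mb apart, and *kar* and *ry* are on 3R with *Cp190*, 2.58 and 2.23 Mb from it. 3L and 3R are arms of the same chromosome, so *st* shares its chromosome with *Cp190* as well.

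**Figure D5:**
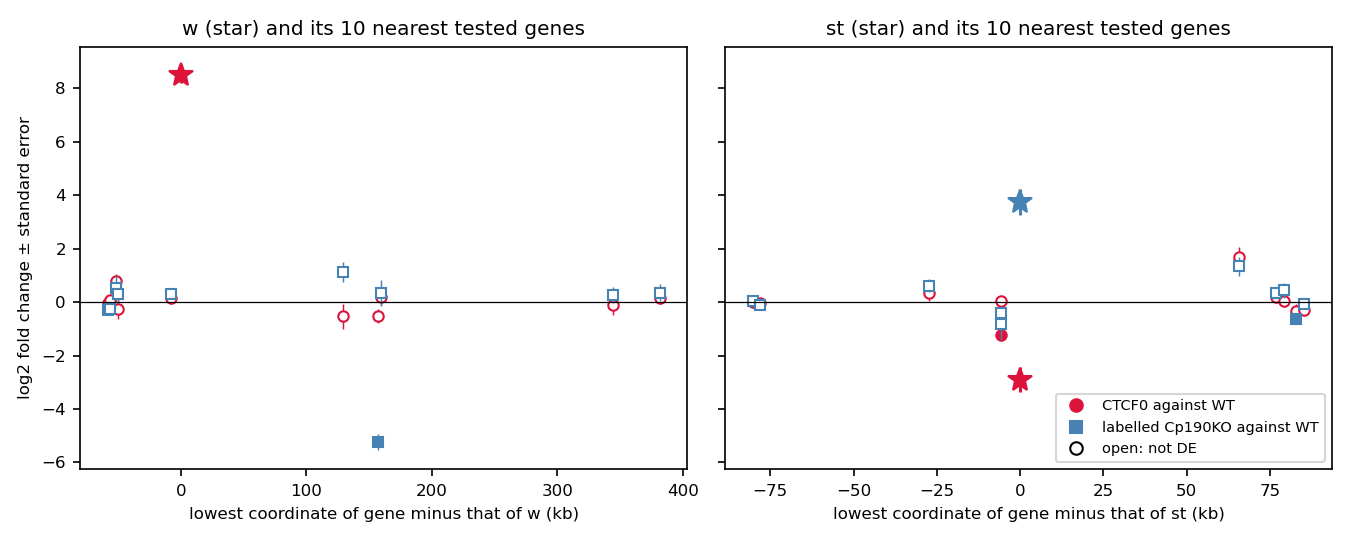
Log2 fold change (with bars of 1 standard error) of *w* or *st* (stars) and their 10 nearest tested genes against the distance between lowest coordinates in kb, in CTCF0 (red) and in the libraries labelled Cp190KO (blue). Filled symbols of the neighbours are DE genes. The neighbours of *w* lie between -0.54 and 0.81 in CTCF0, and *CG3603* stands at -5.23 in the libraries labelled Cp190KO.

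The genes most like *w* and *st* across the 12 libraries were found by Pearson's r of log2 CPM minus the mean of each experiment, which describes these libraries and rests on their shared mutant groups. For *w* they were *CG34138* (r = 0.984), *Tsp42Ed* (r = 0.977), a tetraspanin gene, and *lncRNA:CR43682* (r = 0.970), on 3R, 2R and 2L. Like *w*, each of these passed the filter only through the CTCF0 libraries, so it had to be high there. *CG34138* had 361, 236 and 301 counts in CTCF0 and 0 to 5 counts in each of the other 9 libraries. *lncRNA:CR43682* had 28, 18 and 18 counts in CTCF0 and 0 elsewhere.

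For *st* the closest gene was *mthl8* (r = 0.959), a receptor gene of the methuselah family on the same arm, 3L. It had 15, 19 and 19 counts in WT and 1142, 372 and 571 in the libraries labelled Cp190KO, the same order of replicates as *st*, and 30, 8 and 13 counts in WT and 2, 0 and 0 in CTCF0. *mthl8* was high and low in the same groups as *st*, which is what it was picked for. In the CTCF0 experiment it did not pass the filter and was not tested. *CG31041* (r = 0.921) and *CR44906* (r = 0.90) followed, at 1.49 to 2.07 and 2.87 to 4.37 CPM in the libraries labelled Cp190KO and at most 0.784 and 1.57 CPM elsewhere. *CG31041* passed the filter only through the libraries labelled Cp190KO, so it had to be high there.

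Because *w* is X-linked and sexes were not separated, the male-specific RNAs *roX1* and *roX2* were read as a gauge of the sexes in each pool. Their summed level was 406 to 651 CPM in WT and 277 to 1012 CPM in CTCF0, and 209 to 262 CPM in WT and 108 to 414 CPM in the libraries labelled Cp190KO, overlapping in both experiments. *roX2* alone was 17.3 to 27.8 CPM in WT and 53.1 to 77.9 CPM in the libraries labelled Cp190KO, where it was DE with a log2 fold change of 1.54 (edgeR adjusted p = 0.0198), a call lost without any 1 WT replicate or Cp190KO replicate 3 (adjusted p 0.0584 to 0.132). Between the WT controls *roX1* and *roX2* were lower in that of Cp190KO, with log2 fold changes of -0.98 and -1.77 (edgeR adjusted p = 0.0032 and 5.4e-04). The part of the sexes in the values of *w* or of other X-linked genes was not tested.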

How the data were processed

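The authors mapped reads to dm6 with FlyBase gene models and counted reads per gene with HTSeq 0.9.1. The deposited values are whole-number counts for 17510 genes in each of 12 libraries, with no normalization or filter. Rows that name no gene (22.6 to 34.8% of reads) were kept out. Strand option and overlap mode are not given in the sources used here.

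Counts were analysed with edgeR 4.0.16, limma 3.58.1 and R 4.3.3. A gene entered a fit when 3 or more of its libraries reached 1 CPM, libraries were scaled by TMM, and a robust quasi-likelihood model was fitted to each pair of groups, and to all 12 libraries for the difference between mutants. P-values were two-sided and adjusted by Benjamini-Hochberg over all genes tested. The standard error is the log2 fold change divided by the square root of the F statistic. P-values set the difference between groups against the spread between replicates of pooled CNSs, and not against the spread between animals. Alternatives were RLE scaling, DESeq2 1.42.0 (the tool of the authors), no filter, the replicate number as a block, the adjusted p alone and each library left out. Fits were tested on simulated data with 200 changed genes. There edgeR recovered 58% of 2-fold changes in CTCF0, 20% in the libraries labelled Cp190KO and 15% in the difference. A gene that was not called can therefore still differ by 2-fold. In the simulated data of the 2 mutant comparisons, unchanged genes made up 3.73% and 8.85% of edgeR calls, and 12.8% and 20.5% of DESeq2 calls. These shares depend on the planted changes and were not measured for the real calls. Intervals of count ratios are exact binomial ones at 95%. Log2 CPM for likeness used a prior count of 2. Positions come from an annotation of dm6, and neighbours are ordered by lowest coordinate.

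The members and lists were chosen with earlier results of these data known. Genes named are all members, the targeted genes, DE genes of the pigment lists, DE neighbours of *w* and *st*, and the 3 genes most like each of these. Others were named after their values were seen. Marker lists of fat body, Malpighian tubule, hemocyte, ring gland and salivary gland were also read. In the mutants, edgeR called 1 of their genes, *Akh* of the ring gland, in CTCF0, at 24.0 ± 1.04 against 10.8 ± 0.861 CPM (n = 3 each), a call lost without CTCF0 replicate 1 or any 1 WT replicate (adjusted p 0.0542 to 0.101), and DESeq2 also called *Hml* of hemocytes there. Summed ring gland markers spanned 149 to 209 CPM in WT, 177 to 244 CPM in CTCF0, 11.9 to 262 CPM in the WT control of Cp190KO and 15.9 to 29.1 CPM in the libraries labelled Cp190KO. No sequence was used here.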

Additional observations from a re-analysis of the deposited data

Results flagged for a closer look

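*st* changed in opposite directions in the 2 mutants, and this is why it is listed here. Its log2 fold change was -2.90 in CTCF0 and 3.75 in the libraries labelled Cp190KO. All 3 CTCF0 libraries (0.436 to 0.992 CPM) were below all 3 of their WT libraries, and all 3 libraries labelled Cp190KO (43.9 to 135 CPM) were above theirs. Since *st* was chosen for this difference, the difference was not tested.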

How the results depend on the processing

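Under every alternative, 0 of the members other than *w* and *st* were DE in either mutant or in the difference between them, and *w* and *st* kept their direction. In CTCF0 the filter fixed that direction, since *w* passed it only through the CTCF0 libraries and *st* only through the WT libraries. The kept direction and the ranges below are therefore a description. With each library left out, the log2 fold change of *w* in CTCF0 was 8.28 to 9.02 and that of *st* -3.39 to -2.70, in the 3 fits each that kept these genes above the filter, and that of *st* in the libraries labelled Cp190KO was 3.19 to 4.04. The number of DE genes in CTCF0, 245, was 392 with DESeq2, 382 with no filter, 145 with the replicate block and 90 to 556 without 1 library. In the libraries labelled Cp190KO it was 207, against 440 with DESeq2, 89 with the block and 24 to 318 without 1 library. For the difference it was 127, against 213, 60 and 69 to 141. Between the WT controls it was 1224, and 704 to 1475 without 1 library. There 1 member, *ry*, was DE, and 2 with DESeq2, RLE scaling or the adjusted p alone, and 1 to 2 without 1 library, the second being *kar*.

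Values near 0 changed sign. *kar* in CTCF0 was -0.0018 with DESeq2, -0.0016 with RLE scaling and -0.12 to 0.13 without 1 library, and *pr* -0.15 to 0.23. *ry* in the libraries labelled Cp190KO was -0.0124 with DESeq2, -0.0177 with no filter, -0.0131 with RLE scaling and -0.13 to 0.17 without 1 library. *Pu* between the WT controls was 0.0028 with DESeq2, 0.0017 with RLE scaling and -0.081 to 0.089 without 1 library. In the difference *Pu* was -0.18 to 0.17 and *pr* -0.59 to 0.057. The causes were not tested.

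Samples with the same replicate number did not deviate together in the CTCF0 experiment (r of -0.502 to -0.161). In the Cp190KO experiment their r was -0.0121 to 0.48 (mean 0.173), against -0.336 to 0.343 (mean -0.0863) for different numbers. The numbers were not taken as pairs in either experiment. With the block the calls of *CG9664*, *CG43373*, *Smn*, *Mlc2* and *Akh* were lost (edgeR adjusted p = 0.102, 0.107, 0.107, 0.0520 and 0.0915), as were those of *CG11668* in the libraries labelled Cp190KO and *SmydA-4*. At these depths *v*, *cn* and, outside CTCF0, *w* rest on 17 counts per library or fewer.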

Other observations

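The neighbours of *ry* and *v* held DE genes that the rule for named genes did not cover, and they were chosen after their values were seen. In CTCF0, 1 of 10 neighbours of *ry* was higher and 2 were lower, and 2 of 10 of *v* were higher (DE background 2.81%). In the libraries labelled Cp190KO it was 1 of 10 for *ry* and 0 of 10 for *v* (background 2.41%). For *bw*, *cn*, *kar*, *Pu* and *pr*, 0 of 10 neighbours were DE in either mutant. Within 5 tested genes of *ry*, *CG11668* was higher in CTCF0, at 3.17 ± 1.36 CPM in WT and 24.2 ± 4.08 CPM in the mutant (n = 3 each), a log2 fold change of 2.95 (SE 0.314, edgeR adjusted p = 0.0018) that was DE under all 10 alternatives. In the libraries labelled Cp190KO *CG11668* was higher as well, at 2.69 ± 0.667 CPM in WT and 12.8 ± 5.35 CPM in the mutant, a log2 fold change of 2.24 (edgeR adjusted p = 0.0253). That call was lost with the replicate block (adjusted p = 0.0967), without any 1 WT replicate and without Cp190KO replicate 3 (adjusted p 0.0871 to 0.163).

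Also beside *ry*, *Hsc70-2*, a heat shock cognate gene, had 666, 990 and 1525 counts in WT and 11, 6 and 8 in CTCF0, and *CG31157* had 107, 205 and 221 counts in WT and 1, 1 and 0 in CTCF0. Both passed the filter only through the WT libraries. In the WT control of Cp190KO they had 21, 12 and 461 counts and 2, 2 and 87 counts, so in that group both were high in replicate 3 and low in the other replicates. Ring gland markers were high in the same library, with *phtm*, an ecdysteroid synthesis gene, at 4.19, 8.94 and 140 CPM and *sad*, another, at 3.84, 7.46 and 103 CPM, and a summed level of 11.9 to 262 CPM in this group. In the CTCF0 experiment *phtm* was at 117, 76.7 and 97.1 CPM in WT and 122, 106 and 89.3 CPM in CTCF0. Summed ring gland markers were 149 to 209 CPM in that WT control and 177 to 244 CPM in CTCF0. They were 15.9 to 29.1 CPM in the libraries labelled Cp190KO, where *Hsc70-2* had 3, 7 and 14 counts. The part of ring gland cells in the counts of *Hsc70-2* and *CG31157* was not tested. *ry* itself was 17.5, 21.0 and 17.8 CPM in these WT libraries and did not stand out in replicate 3.

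Within 5 tested genes of *v* on X, *Ork1*, a potassium channel gene, and *SmydA-4* were higher in CTCF0, with log2 fold changes of 1.93 and 1.03 (edgeR adjusted p = 0.0086 and 0.0168). *Ork1* was near the filter in WT, at 1.30, 1.47 and 0.998 CPM, and at 3.86, 4.75 and 5.81 CPM in CTCF0. The call of *Ork1* was lost without WT replicate 1 or 3 (adjusted p = 0.0673 and 0.0572), and that of *SmydA-4* with the replicate block (adjusted p = 0.0941) and without CTCF0 replicate 1 or WT replicate 1 or 3 (adjusted p 0.124 to 0.164). *v* had 10, 6 and 9 counts in WT and 11, 9 and 7 in CTCF0, so at this depth its ratio of 1.10 had a counting interval of 0.616 to 1.98.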
